A study of Setaria viridis with 23 samples.

Results

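The comparison described here is that of inflorescence primordia at 12 days after sowing (DAS) with those at 10 DAS in green foxtail, Setaria viridis, across all genes. It uses 7 of the 23 RNA-seq libraries of a stage series, 4 at 10 DAS and 3 at 12 DAS (replicates 1, 2 and 4), which were sequenced paired-end together. All plants were of the reference accession A10.1, untreated, and grown in the same chamber. Each library was made from poly(A) RNA of a pool of 10 to 30 hand-dissected primordia, so that a value is an average over whole primordia and their cell types, and fewer cells of a type and less RNA per cell cannot be told apart. The study chose 10 DAS as the stage at which the inflorescence meristem (IM) has formed, with branch meristems (BMs) barely visible, and 12 DAS as the stage of primary and secondary branching. The question is which genes change as the primordium passes from one to the other.

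In grasses the shoot apical meristem, on floral transition, becomes an IM, and the IM then forms BMs on its flanks. Work in maize and rice has named many of the genes involved. They include genes that keep the IM indeterminate, genes that start an axillary meristem in the axil of a suppressed bract, genes that mark the boundary between organ and meristem, and genes that limit how long a branch goes on branching. Auxin, which is made locally and moved by transport proteins, is needed for each lateral primordium.

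The 7 libraries held 13248904 to 24467495 counts. Spearman's rho over all genes tested, given as a description, was 0.9853 to 0.9932 among the 10 DAS libraries, 0.992 to 0.9942 among the 12 DAS libraries and 0.9757 to 0.9864 between stages, so that the ranges within 10 DAS and between stages overlapped. 10 DAS replicate 4 was as close to 12 DAS replicate 2 (0.9864) as to 10 DAS replicate 1 (0.9853). Meristem markers were present and their summed level was higher at 12 DAS. SvKn1, SvRs1, SvWus and SvLfy together gave 246 to 410 CPM at 10 DAS and 491 to 659 CPM at 12 DAS. CPM are counts per 1000000 counts of the library, scaled here with TMM factors, which correct for library composition, and are not divided by gene length. The 11 green leaf genes together gave 116 to 154 CPM at 10 DAS and 89.6 to 104 CPM at 12 DAS, with 0 to 2 and 2 to 3 of them at 0. Of these, RuBisCO small subunit (Sevir.3G319300) was at 0 to 0.992 CPM at 10 DAS and 0 to 0.155 CPM at 12 DAS, and RuBisCO activase (Sevir.J012300) at 0.424 to 1.13 CPM and 0.311 to 0.675 CPM. Most of the sum came from other members, the highest being the LIL3-like Sevir.1G101700, at 57.4 to 76.2 CPM and 49.9 to 58.4 CPM. Of the 9 leaf genes tested, 2 fell (22.2%, against 7.75% of all genes tested) and none rose, all 9 estimates were below 0 with a median log2 fold change of -0.70, and the part of leaf tissue in the falls described below was not tested.

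Of 35214 genes, 21180 passed a filter on low counts and were tested with edgeR's quasi-likelihood F-test on all 23 libraries. A gene is called here at a Benjamini-Hochberg adjusted p under 0.05 over all genes tested. By this rule 3040 genes were called, 14.4% of those tested, with 1399 higher (6.61%) and 1641 lower (7.75%) at 12 DAS. More than 2-fold were 1276 of them (6.02% of those tested), 431 higher (2.03%) and 845 lower (3.99%). The median log2 fold change of all genes tested was -0.00063. The libraries of the stages did not overlap in 4914 genes (23.2% of those tested), and they did not overlap in 2638 of the called genes (86.8% of these). The count of called genes depended on single 12 DAS libraries, being 1739 without replicate 1 and 1960 without replicate 4, while the count past 2-fold ran from 947 to 1466 over the 7 fits that left out each library in turn. Of the 3040 called genes, 1284 (42.2%) were called in every one of these 7 fits, and of the 1276 past 2-fold 786 (61.6%) were. The order of the directions changed without 12 DAS replicate 4 (995 higher and 965 lower) and without 10 DAS replicate 4 (2038 higher and 1999 lower).

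**Figure D1:**
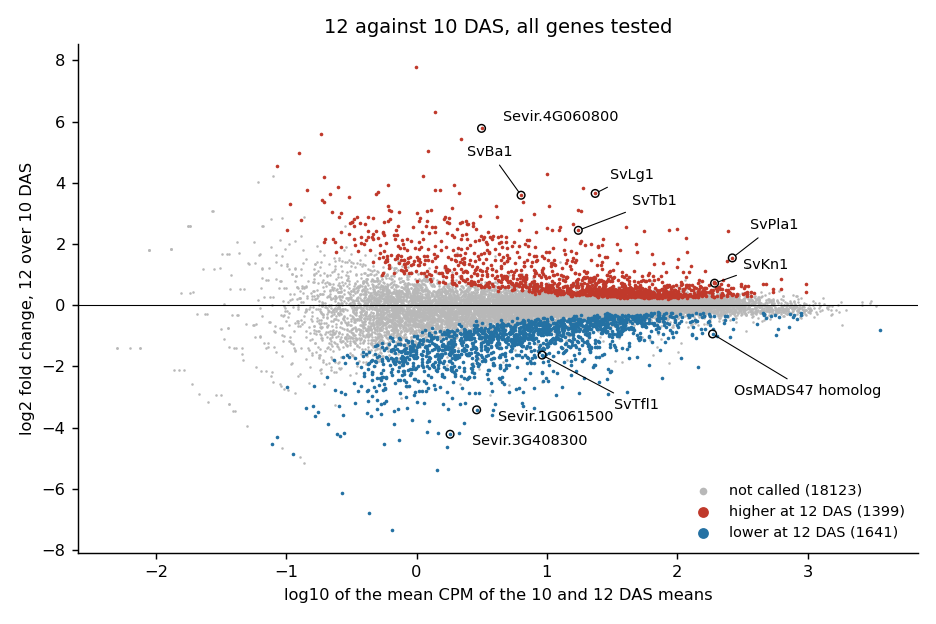
Log2 fold change of 12 over 10 DAS (y axis) against the log10 of the mean CPM of both stages (x axis), a point per gene tested, with called genes in red (higher at 12 DAS) and blue (lower) and circles around genes named in the text; 17 genes at 0 in all 7 libraries are not drawn. The 43 rises and 55 falls of 3 or more on the log2 scale lie mostly at low CPM, and the median of all genes is at -0.00063.

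Rises and falls differed in size. Rises were mostly small, with 551 of the 1399 under 0.5 on the log2 scale and 417 between 0.5 and 1, and 30.8% of them were past 2-fold. Among the falls 205 were under 0.5, 591 between 0.5 and 1 and 625 between 1 and 2, and 51.5% were past 2-fold. Larger changes were fewer in both directions, with 122 rises and 165 falls between 2 and 3 and 43 rises and 55 falls of 3 or more. The median log2 fold change was 0.62 among rises and -1.03 among falls. In the falls past 2-fold, 10 DAS replicate 1 was the highest library of its stage in 61.2% of the genes and 10 DAS replicate 4 the lowest in 57.0%, while 12 DAS replicate 2 was the highest of its stage in 60% of them. Without 10 DAS replicate 1 the falls past 2-fold numbered 633 against 457 rises, and without 10 DAS replicate 4 they numbered 1036 against 430.

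The order of the directions also varied with starting level, taken as the mean CPM at 10 DAS. These values also enter the fold change, so that a low level at 10 DAS favours rises and a high level favours falls. The filter on low counts used the libraries of all stages. A gene with few counts at 10 DAS could thus be tested because of its counts at other stages, which also favours rises under 1 CPM. Among the 2561 genes under 1 CPM, 216 rose (8.43%) and 104 fell (4.06%), with median log2 fold changes of 2.15 and -2.21. Among the 5730 genes from 1 to 10 CPM the falls were more numerous, 769 (13.4%) against 375 rises (6.54%). From 10 to 100 CPM there were 681 rises (6.43%) and 687 falls (6.49%) in 10587 genes. From 100 to 1000 CPM there were 127 rises (5.65%) and 80 falls (3.56%) in 2248 genes, of which 3 and 9 were past 2-fold. Of the 54 genes at 1000 CPM or more, 1 was called. The order of the directions under 1 CPM and from 10 to 100 CPM depended on how level was defined, so that these ranges show no effect of starting level. With the mean over both stages, 122 genes under 1 CPM rose (4.59%) and 212 fell (7.98%). From 1 to 10 CPM falls were again the more numerous, 766 (13.5%) against 386 (6.80%), from 10 to 100 CPM there were 725 rises (6.91%) and 600 falls (5.72%), and from 100 to 1000 CPM rises led, 166 (7.19%) against 62 (2.68%).

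**Figure D2:**
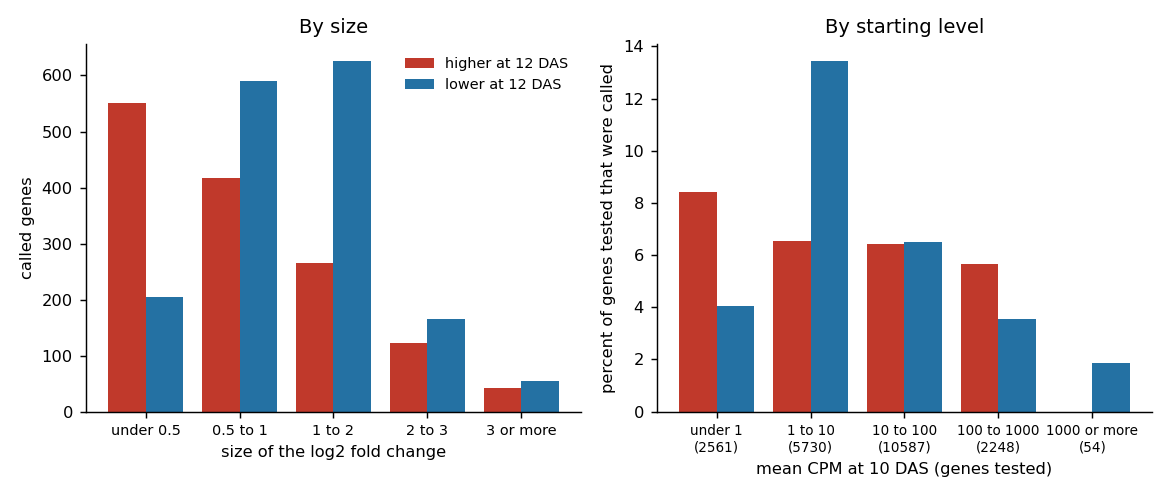
Called genes by size of the log2 fold change (left, y axis number of genes) and, as a percent of the genes tested, by mean CPM at 10 DAS (right, genes tested in brackets), in red for higher and blue for lower at 12 DAS. Rises lead under 0.5 (551 against 205), falls lead at 1 to 2 (625 against 266), and falls reach 13.4% at a starting level of 1 to 10 CPM.

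The called gene with the highest level at 10 DAS was Sevir.6G140000, which was between 4246 and 5127 CPM at 10 DAS and between 1954 and 3230 CPM at 12 DAS, and fell (log2 fold change -0.80 ± 0.20, SE). It has no name in the tables used here, and its adjusted p was 0.0093, but 0.0809 without 12 DAS replicate 1. The other 9 of the 10 called genes highest at 10 DAS changed by -0.98 to 0.43 on the log2 scale, 8 lower and 1 higher. They included the ribosomal proteins S24 (Sevir.1G029200, log2 fold change -0.33) and S27 (Sevir.1G161500, -0.30). Both had calls that were lost on leaving out single libraries (S24 without 10 DAS replicate 3, 12 DAS replicate 1 or 12 DAS replicate 2, adjusted p up to 0.0966, and S27 without any of 6 of the 7, that is all but 10 DAS replicate 1, adjusted p up to 0.169). Picking these 10 genes by their level at 10 DAS favours falls. Among all genes from 100 to 1000 CPM at 10 DAS, rises outnumbered falls (127 against 80).

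Among genes that the study discusses by name, 53 of 54 were tested, 25 rose (47.2%, against 6.61% of all genes) and 5 fell (9.43%, against 7.75%), with a median log2 fold change of 0.70. The study chose these genes on the same libraries, from their profiles over the stages, so that the count is not independent of the data. By the study's grouping the genes of IM identity (9 tested) gave 0 rises and 4 falls, those grouped with BM initiation (11) gave 11 rises, those grouped with spikelet and floral meristems (16) gave 11 rises, and those of floral organ development (14) gave 2 rises and 1 fall. Of the falls, that of SvTfl1 was called on leaving out any library, and the other 4 were not. The number of falls was 3 without 10 DAS replicate 1, 10 DAS replicate 2, 12 DAS replicate 1 or 12 DAS replicate 2, and 2 without 12 DAS replicate 4.

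The genes of IM identity that fell were SvTfl1, another TFL1-like gene, an ALOG gene and an SVP-like MADS-box gene. SvTfl1, a homolog of the Arabidopsis gene that keeps the IM from turning into a flower, was at 10.1, 14.1, 12.4 and 19.0 CPM in the 10 DAS libraries and at 2.59, 5.60 and 5.30 CPM in the 12 DAS libraries. The stages did not overlap, and the log2 fold change was -1.63 ± 0.35 (SE, adjusted p = 0.00266). The OsMADS47 homolog (Sevir.9G518400), of the SVP group that represses flowering in Arabidopsis, was at 236, 227, 290 and 229 CPM at 10 DAS and at 115, 139 and 130 CPM at 12 DAS. It was lower in every 12 DAS library (log2 fold change -0.94 ± 0.24, adjusted p = 0.0109), though the adjusted p was 0.0633 without 12 DAS replicate 1. The other SVP-like genes, homologs of OsMADS55 and OsMADS22, had overlapping libraries and log2 fold changes of 0.07 ± 0.15 and -0.21 ± 0.11.

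SvTaw1 (Sevir.9G221800), homolog of the rice ALOG gene that delays the change to spikelets, was at 167, 111, 90.4 and 96.0 CPM at 10 DAS and at 86.6, 65.3 and 60.5 CPM at 12 DAS. Its libraries did not overlap, but it missed the threshold (log2 fold change -0.72 ± 0.25, adjusted p = 0.0578). Over the alternatives its adjusted p ran from 0.0320 with only the 11 paired-end libraries to 0.203 without 10 DAS replicate 1. SvTaw1-like 2 (log2 fold change -0.53 ± 0.18) and the TFL1-like Sevir.7G334800 (-0.73 ± 0.24) passed narrowly, with adjusted p = 0.0479 and 0.0403. SvTaw1-like 2 lost the call without 10 DAS replicates 1 or 2 or 12 DAS replicates 2 or 4 (adjusted p up to 0.184), and Sevir.7G334800 without 10 DAS replicates 1 or 3 or 12 DAS replicates 1 or 4 (up to 0.211). SvTfl1-like (0.51 ± 0.21) and SvLg2 (0.21 ± 0.18) were not called.

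The genes for axillary meristem initiation all rose. SvBa1, the homolog of maize barren stalk1, a bHLH factor needed for axillary meristems, was at 0.879, 1.71, 0.667 and 0.496 CPM at 10 DAS and at 13.9, 10.7 and 10.7 CPM at 12 DAS. Every 12 DAS library was far above every 10 DAS library, with a log2 fold change of 3.59 ± 0.30 (adjusted p = 1.09e-08). SvBaf1, homolog of the maize AT-hook gene barren stalk fastigiate1, was at 1.45 to 4.07 CPM and then at 10.1 to 17.6 CPM (2.39 ± 0.31). SvWus, homolog of the Arabidopsis stem cell factor WUSCHEL, was at 0.121 to 0.552 CPM and then at 1.01 to 2.53 CPM (2.40 ± 0.44). SvMoc1, homolog of a rice GRAS gene for tillers, was at 2.48 to 6.67 CPM and then at 7.57 to 10.4 CPM (0.86 ± 0.28, adjusted p = 0.0426). The last of these calls was lost on leaving out any library but 10 DAS replicate 1, with adjusted p up to 0.172, while the other calls of this group stood in all 7 such fits.

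Boundary genes rose too, and the steepest was SvLg1. This SBP gene, homolog of maize liguleless1, which acts where blade and sheath of a leaf meet, was at 2.44, 3.47, 2.67 and 5.60 CPM at 10 DAS and at 42.9, 45.2 and 42.2 CPM at 12 DAS (log2 fold change 3.65 ± 0.20, adjusted p = 1.39e-11). The NAC genes SvCuc2 and SvCuc3, whose Arabidopsis counterparts separate organs from the meristem, were at 22 to 36.6 and 11.5 to 19.7 CPM at 10 DAS and at 94.3 to 104 and 45 to 71.3 CPM at 12 DAS. Neither overlapped between stages, and the log2 fold changes were 1.68 ± 0.23 and 1.79 ± 0.24.

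The TCP genes of branch outgrowth, SvTb1 and SvBad1, rose, and so did 2 of the 3 ramosa homologs. SvTb1, homolog of the maize gene that holds back side shoots, was at 6.11, 8.09, 3.88 and 3.19 CPM at 10 DAS and at 33.8, 26.4 and 28.5 CPM at 12 DAS (log2 fold change 2.45 ± 0.22). SvBad1, whose maize homolog sets branch angle, was at 0.424 to 1.46 CPM and then at 5.99 to 9.90 CPM (3.23 ± 0.25). SvRa2, a LOB-domain gene, was at 7.15 to 15.7 CPM and then at 35.5 to 46.3 CPM (1.90 ± 0.19), and SvRa3, a trehalose phosphate phosphatase gene, at 1.66 to 2.52 CPM and then at 13.3 to 23.7 CPM (3.23 ± 0.29). In maize these limit the branching of the tassel and ear. SvRa1, a zinc finger gene, was at or near 0 in all 7 libraries, with 0.0502 CPM in 10 DAS replicate 2 and 0 in the other 6, so that a change was not detectable at this depth.

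**Figure D3:**
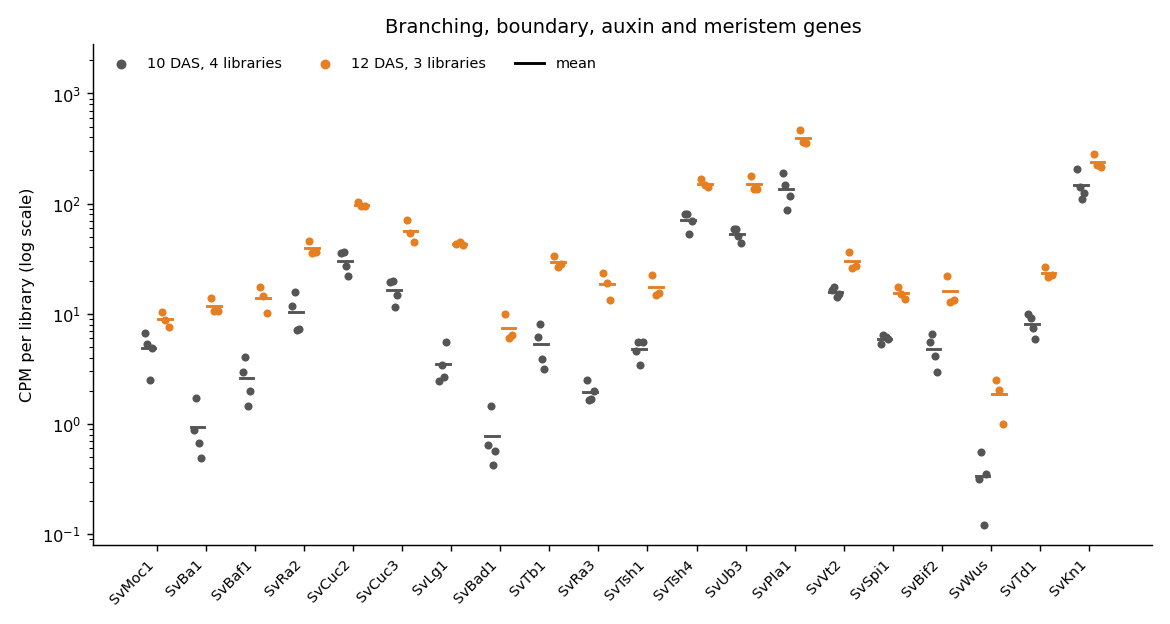
CPM per library on a log axis for 20 genes of branching, boundary, auxin and meristem function, with points for the 4 libraries at 10 DAS (grey) and the 3 at 12 DAS (orange) and bars for the means. The stages do not overlap in any of these genes, which were selected for the figure, against no overlap in 23.2% of all genes tested. SvRa1, SvFon2 and SvBrm, which were not called, are not drawn. SvLg1 goes from 2.44 to 5.60 CPM to 42.2 to 45.2 CPM and SvKn1 from 110 to 207 CPM to 214 to 283 CPM.

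Genes that keep bracts and leaves small in the maize or rice inflorescence, or that pace leaf initiation, rose as well. The GATA gene SvTsh1 was at 3.45 to 5.60 CPM at 10 DAS and at 14.8 to 22.4 CPM at 12 DAS (log2 fold change 1.88 ± 0.18). The SBP genes SvUb3 and SvTsh4 were at 43.7 to 59.5 and 53.3 to 81.3 CPM and then at 136 to 180 and 141 to 166 CPM (1.5 ± 0.16 and 1.1 ± 0.15). SvPla1, a cytochrome P450 gene known from the rice plastochron mutant, was at 188, 147, 88.2 and 117 CPM at 10 DAS and at 465, 363 and 355 CPM at 12 DAS (1.54 ± 0.24). None of these overlapped between stages.

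The meristem genes SvKn1, SvRs1, SvTd1, SvFea4 and SvLfy also rose. The KNOX genes SvKn1 and SvRs1, which maintain meristems, rose by 0.72 ± 0.17 and 0.79 ± 0.16 on the log2 scale, with SvKn1 at 110 to 207 CPM and then at 214 to 283 CPM. SvTd1, homolog of a maize receptor kinase that limits meristem size, was at 5.95 to 9.87 CPM and then at 21.4 to 26.9 CPM (1.53 ± 0.18). The bZIP gene SvFea4 was at 4.77 to 8.43 CPM and then at 12.7 to 17.9 CPM (1.1 ± 0.25), and SvLfy, homolog of LEAFY, at 45.8 to 63.4 CPM and then at 96.5 to 142 CPM (1.07 ± 0.17). SvFon2, a small peptide gene, was at 0 to 0.477 CPM in the 7 libraries and was not called. The chromatin remodeler genes SvBrm and SvSyd were not called either (0.35 ± 0.15 and 0.38 ± 0.14, adjusted p = 0.118 and 0.0704), though SvSyd did not overlap between stages.

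Of the 14 genes the study grouped with floral organ development, 11 were not called. SvLhs1, a SEPALLATA-like gene, was at 0 to 0.160 CPM in the 7 libraries. SvBd1, a spikelet meristem gene that the study grouped with spikelet and floral meristems, was at 0 to 0.151 CPM and was not called either. The floral genes called higher were SvTga1, an SBP gene (0.55 ± 0.14, adjusted p = 0.0108, 0.0952 without 12 DAS replicate 1), and SvTs2 (0.839 to 1.45 CPM and then 2.38 to 3.60 CPM, 1.32 ± 0.25), whose maize homolog acts in sex determination of florets. The B class gene SvMADS4 fell from 2.62 to 4.02 CPM to 2.01 to 2.42 CPM (-0.73 ± 0.21), and it lost its call without 10 DAS replicate 2 or 12 DAS replicates 2 or 4 (adjusted p up to 0.0828).

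All auxin-related genes called in the fit on all libraries were higher at 12 DAS. Of 30 genes the study listed, 29 were tested, 12 rose (41.4%, against 6.61% of all genes) and none fell (7.75% of all genes fell), with a median log2 fold change of 0.29 and 8 estimates below 0. The study took the list from clusters of these libraries. The signaling genes, which in the study's list include SvBa1, were the most often called, with 6 of 9 higher, then transport (3 of 6), synthesis and metabolism (2 of 7) and response (1 of 7). DESeq2 gave 13 higher and 0 lower, whereas a fit on only the 7 libraries gave 13 higher and 2 lower, and one on only the 11 paired-end libraries 12 higher and 3 lower.

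By step, the auxin synthesis genes SvVt2 (tryptophan aminotransferase) and SvSpi1 (YUCCA flavin monooxygenase) were at 14.3 to 17.6 and 5.27 to 6.48 CPM at 10 DAS and at 26.3 to 36.4 and 13.8 to 17.6 CPM at 12 DAS, with log2 fold changes of 0.92 ± 0.17 and 1.39 ± 0.24. Of the transport genes, SvBif2, a PINOID-like kinase, was at 2.98 to 6.53 CPM and then at 12.8 to 22 CPM (1.72 ± 0.23). An efflux carrier annotated as PIN3a-like (Sevir.5G249500) was at 4.47 to 8.74 CPM and then at 13.7 to 19.4 CPM (1.32 ± 0.18).

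Among signaling genes, the repressor annotated as IAA20-like (Sevir.4G058700) was at 1.70 to 2.88 CPM and then at 3.96 to 11 CPM (1.58 ± 0.33), and the auxin response factors annotated as ARF19-like (Sevir.4G252900) and ARF23-like (Sevir.8G145300) rose by 0.74 ± 0.12 and 0.85 ± 0.14. The 5 members of the response class with estimates below 0 included Sevir.9G187300, annotated as auxin-repressed, at 66.4, 42.8, 88.5 and 38.6 CPM at 10 DAS and at 10.7, 21.1 and 17.7 CPM at 12 DAS. It did not overlap between stages and was not called in the fit on all libraries (-1.85 ± 0.76, adjusted p = 0.11). Over the alternatives its adjusted p ran from 0.00187 with only the 7 libraries to 0.289 without 12 DAS replicate 1. The ARF and auxin-repressed genes, unlike the others, were chosen after their values were seen.

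By transcription factor family, 424 of 468 listed members of 9 families were tested, 64 rose (15.1%, against 6.61% of all genes) and 92 fell (21.7%, against 7.75%). The study states that it analysed only genes filtered for a change of more than 2-fold between stages of these libraries. The family lists may share this filter, so that the counts may not be independent of the data. The number called, 156, was 97 without 12 DAS replicate 1, and the falls were 50 without this library and 59 without 12 DAS replicate 4. The families differed in direction, with more rises than falls among SBP and MADS-box genes and more falls than rises among bHLH, AP2/ERF and NAC genes.

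**Figure D4:**
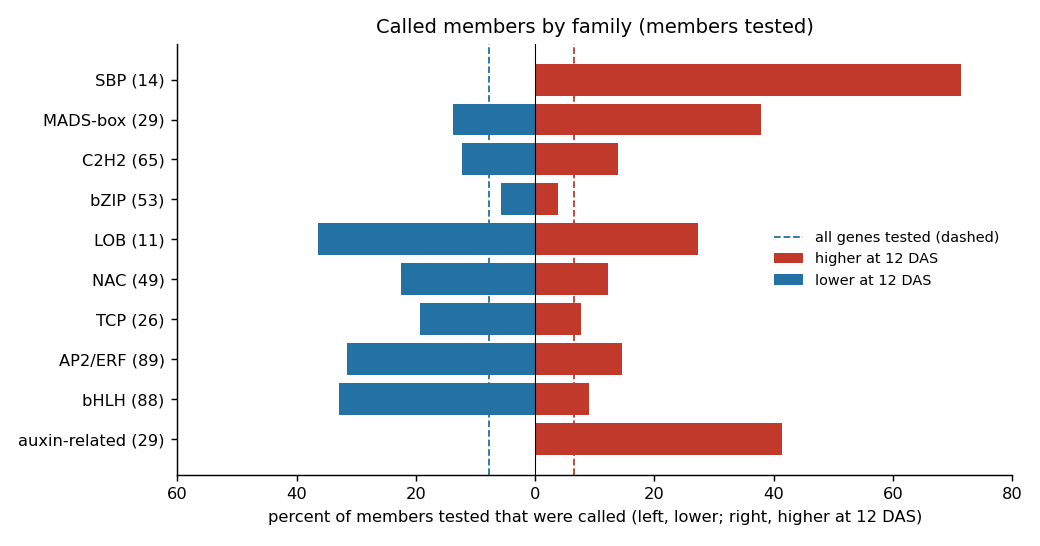
Percent of the tested members of each transcription factor family, and of the auxin-related genes, called higher (red, right) and lower (blue, left) at 12 DAS, with the number tested in brackets and dashed lines at the percents of all genes tested (6.61% and 7.75%). SBP stands at 71.4% higher and none lower, and bHLH at 33.0% lower and 9.09% higher.

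SBP-box genes, plant factors of which many are restrained by a microRNA in Arabidopsis and rice, had the largest share of rises. Of 14 members 10 rose (71.4%), none fell, and 13 had an estimate above 0. The number of rises was 9 to 10 on leaving out each library. Sevir.2G336300, annotated as SPL5, was at 1.68, 0.653, 0.727 and 0.567 CPM at 10 DAS and at 26.4, 16.6 and 14.1 CPM at 12 DAS (log2 fold change 4.28 ± 0.33, adjusted p = 4.22e-09). Its near neighbour by identifier, Sevir.2G336100, annotated as SPL13-like, was at 21.8 to 36.2 CPM and then at 145 to 209 CPM (2.50 ± 0.17). With SvLg1, SvUb3 and SvTsh4, and with the SPL7-like Sevir.7G202100 (1.49 ± 0.26), these are the 6 members past 2-fold. The remaining 4 rises ran lower, from 0.42 to 0.57.

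Of 29 MADS-box genes tested, 11 rose (37.9%) and 4 fell (13.8%), and the clades differed. Sevir.4G060800, annotated as OsMADS5-like of the SEPALLATA clade, was at 0.0399, 0.201, 0 and 0.213 CPM at 10 DAS and at 7.2, 4.98 and 6.41 CPM at 12 DAS, a log2 fold change of 5.78 ± 0.38 (8 counts in all at 10 DAS and 313 at 12 DAS). The OsMADS34-like Sevir.9G087100, of the same clade, was at 14.4 to 21.3 CPM and then at 86.4 to 106 CPM (2.42 ± 0.15). The other 3 SEPALLATA-like genes, SvLhs1 and the homologs of OsMADS7 and OsMADS8, were not called. Rice factors of this clade act in spikelet and floral meristems.

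All 4 APETALA1/FRUITFULL-like genes were called, 3 higher and 1 lower. The OsMADS15-like Sevir.2G006400 was at 43.6, 50.3, 30.8 and 42.4 CPM at 10 DAS and at 238, 168 and 169 CPM at 12 DAS (2.20 ± 0.16), the AP1-like Sevir.9G087300 rose by 1.74 ± 0.15 and the OsMADS18-like Sevir.2G393300 by 0.65 ± 0.12. The fourth, the OsMADS20-like Sevir.3G374400, was at 24.4 to 38.2 CPM and then at 15.9, 14.0 and 11.5 CPM, against the direction of the others (-1.05 ± 0.23). The OsMADS32-like Sevir.5G305800 was at 63.7 to 91.0 CPM and then at 362 to 508 CPM (2.41 ± 0.15). Of 5 genes of the SOC1-like clade, flowering activators in Arabidopsis, 3 rose, the steepest being the OsMADS56-like Sevir.9G347400 from 2.76 to 5.95 CPM to 12.2 to 15.5 CPM (1.61 ± 0.28). The steepest fall of the family was that of the OsMADS26-like Sevir.6G011600, at 0.753 to 0.879 CPM and then at 0 to 0.106 CPM, with 63 counts at 10 DAS and 3 at 12 DAS. Its ratio was 13.8 (95% interval 4.50 to 68.5, exact, counting error only). The AP1-like, OsMADS15-, OsMADS18-, OsMADS32- and OsMADS56-like genes and the SPL7-like gene were chosen after their values were seen.

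**Figure D5:**
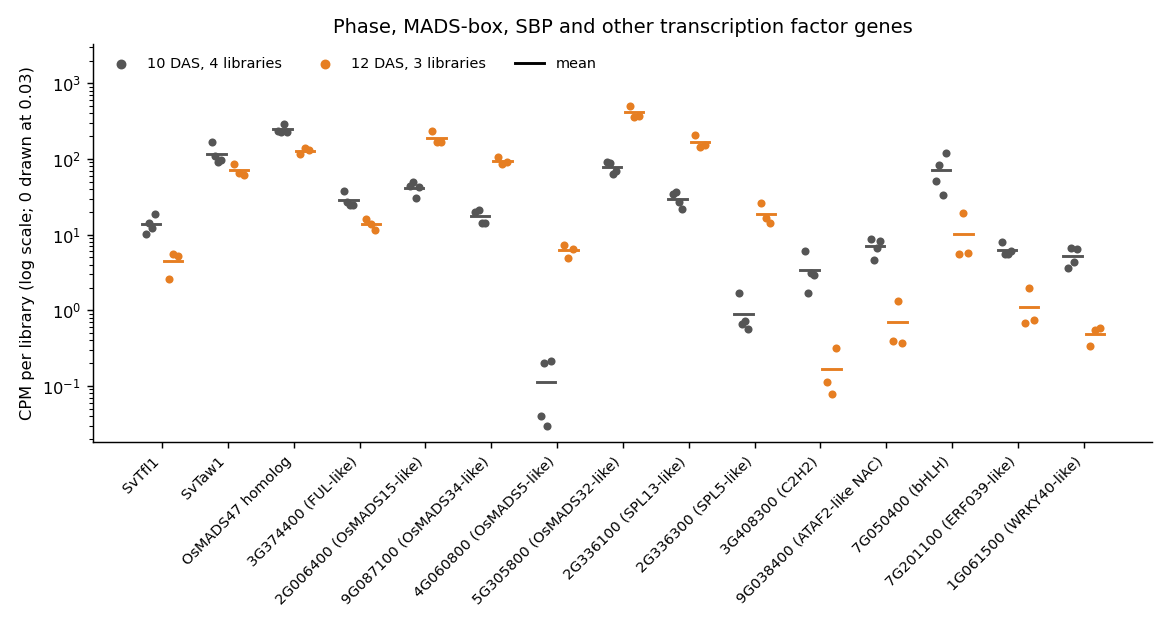
CPM per library on a log axis for 15 genes of flowering phase and of the MADS-box, SBP, C2H2, NAC, bHLH, AP2/ERF and WRKY families, grey points for the 4 libraries at 10 DAS, orange for the 3 at 12 DAS, bars for means, and 0 drawn at 0.03. None of these genes, which were selected for the figure, overlaps between stages, against no overlap in 23.2% of all genes tested. The bHLH gene Sevir.7G050400 spreads from 33.1 to 120 CPM at 10 DAS, and in it 12 DAS replicate 2 is at 19.3 CPM, above the other 2 libraries.

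Of 88 bHLH genes tested, 29 fell (33.0%) and 8 rose (9.09%), with a median log2 fold change of -0.32. The falls numbered 17 without 12 DAS replicate 4, and the rises 5 without 10 DAS replicate 4 and 4 without 12 DAS replicate 1. The largest falls were those of Sevir.7G050400 and Sevir.7G050300, which follow each other by identifier. The first was at 51.3, 82.0, 33.1 and 120 CPM at 10 DAS and at 5.51, 19.3 and 5.67 CPM at 12 DAS (-2.85 ± 0.69, adjusted p = 0.00686). The bHLH35-like Sevir.7G050300 was at 10.7, 14.0, 5.51 and 15.8 CPM and then at 0.788, 3.42 and 0.847 CPM (-2.84 ± 0.72, adjusted p = 0.00913). In both the 10 DAS libraries stood in the same order, replicate 4 highest and replicate 3 lowest, and 12 DAS replicate 2 was above the other 12 DAS libraries. Without 12 DAS replicate 1 the adjusted p of Sevir.7G050400 was 0.0522, and Sevir.7G050300 lost its call without 12 DAS replicate 1 or 4 (adjusted p up to 0.0639).

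Some bHLH genes that lie near each other by identifier and are annotated as MYC2- or bHLH14-like, relatives of the jasmonate response factor MYC2 of Arabidopsis, fell. Sevir.6G239900 was at 2.06 to 2.91 CPM and then at 0.544 to 0.844 CPM (-1.82 ± 0.35), Sevir.6G240000 at 2.31 to 4.11 CPM and then at 0.619 to 0.855 CPM (-2.05 ± 0.39), and Sevir.6G240200 at 5.33 to 13.0 CPM and then at 1.80 to 3.73 CPM (-1.73 ± 0.36). The AIB-like Sevir.5G291500, annotated as induced by abscisic acid, was at 31.8 to 38.8 CPM and then at 8.32 to 15.7 CPM (-1.68 ± 0.19). These 4 were chosen after their values were seen. The bHLH list holds other genes in the same stretch of identifiers. Of these, Sevir.6G239700 was called in the fit on all libraries. It lost its call without 12 DAS replicate 1 or 4 (adjusted p up to 0.0535), and Sevir.6G240400 is not described here. The largest bHLH rise after SvBa1 was that of the bHLH96-like Sevir.1G333900 (1.06 ± 0.20).

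Of 89 AP2/ERF genes tested, 28 fell (31.5%) and 13 rose (14.6%), with a median log2 fold change of -0.42. The falls numbered 12 without 12 DAS replicate 1 and 18 without 12 DAS replicate 4, and the rises 8 without 12 DAS replicate 1. The largest fall was that of the DREB-type Sevir.1G027800, with 26 counts at 10 DAS and 1 at 12 DAS, a ratio of 17.0 (95% interval 2.80 to 699, exact, counting error only), and its call was lost without 12 DAS replicate 1 (adjusted p = 0.0777). Of the 13 annotated as AP2-like or AIL, 5 fell and 1, the AIL5-like Sevir.9G430500, rose (0.98 ± 0.20). The TOE1-like Sevir.3G045500, whose Arabidopsis relatives delay flowering, was at 21.6, 19.6, 23.1 and 14.8 CPM at 10 DAS and at 2.81, 6.22 and 3.92 CPM at 12 DAS (-2.23 ± 0.47). Next in size among all falls of the family was the ERF039-like Sevir.7G201100, at 5.47 to 8.11 CPM and then at 0.675, 1.94 and 0.742 CPM (-2.55 ± 0.56).

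The largest AP2/ERF rises were in genes near or under 1 CPM at 10 DAS. The ERF003-like Sevir.3G023200 was at 0.160, 0.0502, 0 and 0 CPM at 10 DAS and at 3.88, 1.48 and 1.80 CPM at 12 DAS (5 counts against 122, log2 fold change 5.05 ± 0.56). The ERF115-like Sevir.2G280300 was at 0.120 to 0.603 CPM and then at 1.27 to 3.15 CPM (2.54 ± 0.44). A neighbouring pair annotated as ESR2-like, whose Arabidopsis relative acts in organ initiation, rose together, Sevir.1G220900 from 0.424 to 2.16 CPM to 4.56 to 7.54 CPM (2.40 ± 0.39) and Sevir.1G221000 from 0.283 to 1.04 CPM to 2.70 to 4.56 CPM (2.49 ± 0.40). The TOE1-like and ESR2-like genes were chosen after their values were seen.

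Of 49 NAC genes tested, 11 fell (22.4%) and 6 rose (12.2%), and SvCuc3 and SvCuc2 were among the rises. The log2 fold changes of all 49, called or not, ran from -3.44 to 1.81. Without 12 DAS replicate 1 the falls numbered 6 and the rises 5. Among the falls was that of the ATAF2-like Sevir.9G038400, of a group known from stress responses in Arabidopsis, at 8.67, 4.57, 6.60 and 8.22 CPM at 10 DAS and at 0.394, 1.32 and 0.371 CPM at 12 DAS (-3.43 ± 0.96, adjusted p = 0.0176). Again 12 DAS replicate 2 was the highest of its stage, and the call was lost without 12 DAS replicate 1 or 4 (adjusted p up to 0.0884).

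C2H2 zinc finger genes went both ways, with 9 higher (13.8%) and 8 lower (12.3%) of 65 tested. Sevir.3G408300, annotated as zinc finger protein 6-like, fell from 6.03, 1.71, 3.15 and 2.91 CPM to 0.113, 0.0777 and 0.318 CPM (-4.22 ± 0.53), the largest fall of any listed family. Sevir.6G252200, annotated as ZFP2, was at 0.424 to 0.854 CPM and then at 3.11 to 5.29 CPM (2.75 ± 0.37). The falls numbered 5 without 12 DAS replicate 1. Of 11 LOB-domain genes tested, 3 rose (27.3%) and 4 fell (36.4%), so the family went both ways. SvRa2 was 1 of the rises, and the others were in genes under 1 CPM, Sevir.2G043200 at 0 to 0.201 CPM and then at 0.394 to 0.689 CPM (2.73 ± 0.70) and the LBD15-like Sevir.5G370100 at 0.0606 to 0.251 CPM and then at 0.318 to 1.07 CPM (1.99 ± 0.45). Their calls were lost without 12 DAS replicate 4 (adjusted p = 0.0546) and without 12 DAS replicate 1 (adjusted p = 0.126) respectively. The largest fall was that of the LBD37-like Sevir.9G168300 (12.4 to 25.7 CPM and then 6.02 to 9.02 CPM, -1.45 ± 0.33). The falls numbered 1 without 10 DAS replicate 1 or 12 DAS replicate 4, and 2 without 12 DAS replicate 1 or 2.

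More TCP genes were called lower than higher in the fit on all libraries, and bZIP genes were the least often called of the 9 families. The TCP list held 26 tested genes, with SvTb1 and SvBad1 higher (7.69%, against 6.61% of all genes) and 5 lower (19.2%, against 7.75%). Among those lower was the TCP14-like Sevir.1G325700 (34.6 to 50.4 CPM and then 19.1 to 24.8 CPM, -0.95 ± 0.21). Of these 26 genes, 8 were annotated as chaperonins or lipid kinases and not as TCP factors, and none of the 8 was called. The TCP falls were 2 without 12 DAS replicate 1 and 3 without 12 DAS replicate 4, each against 2 rises, so that the order of the directions was not stable. Of 53 bZIP genes tested, 2 rose (3.77%), SvFea4 and the ABI5-like Sevir.9G425100 (1.37 ± 0.20), and 3 fell (5.66%). The bZIP rises numbered 4 with DESeq2 or with only the 7 libraries and 5 with only the 11 paired-end libraries. The bZIP falls were 1 without 10 DAS replicate 1 or 3 and 0 without 12 DAS replicate 1.

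The study picked 21 transcription factor genes as candidates from these libraries, and of these 6 rose (28.6%, against 6.61% of all genes) and 4 fell (19.0%, against 7.75%). The falls were 2 without 12 DAS replicate 2 and 1 without 12 DAS replicate 4. Of 65 partners listed for its sub-networks, which were also chosen from profiles of these libraries, 33 rose (50.8%, against 6.61% of all genes) and none fell, and 31 to 34 rose on leaving out each library. The largest rise among partners was that of Sevir.5G256600, annotated as a protein phosphatase 2C of the abscisic acid-induced HAI group, at 1.6, 4.82, 1.21 and 2.27 CPM at 10 DAS and at 33.3, 34.8 and 39.0 CPM at 12 DAS (3.84 ± 0.29, adjusted p = 2.84e-09).

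The 20 largest rises without overlap and with at least 1 CPM at 12 DAS ran from 3.19 to 7.78 on the log2 scale, from a median of 0.203 CPM at 10 DAS. At 14 DAS, the next stage, 15 of them had a higher mean than at 12 DAS. SvLg1, SvBa1, SvRa3, SvBad1, the SEPALLATA-like Sevir.4G060800, the SPL5-like Sevir.2G336300, the ERF003-like Sevir.3G023200 and the phosphatase Sevir.5G256600 were among them. So was the NF-YB6-like Sevir.1G308700, at 0.121 to 0.502 CPM and then at 2.91 to 4.66 CPM (3.68 ± 0.40). The largest estimate rests on 1 library. Sevir.4G216300 had 0 counts at 10 DAS and was at 0.169, 5.68 and 0.0530 CPM at 12 DAS, and without 12 DAS replicate 2 its adjusted p was 0.562 (range over its alternatives 0.000902 with DESeq2 to 0.562). Sevir.2G018500, at 2 counts at 10 DAS and 136 at 12 DAS, was at 2.14, 2.72 and 3.34 CPM at 12 DAS, a ratio of 104 (95% interval 28.2 to 865, exact, counting error only).

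Neighbours by identifier rose together in this list. Sevir.9G259100 and Sevir.9G259200, next to SvPla1 (Sevir.9G259300), were at 0.0606 to 0.402 and 0 to 0.201 CPM at 10 DAS and at 3.54 to 3.87 and 3.73 to 4.82 CPM at 12 DAS (3.93 ± 0.42 and 5.43 ± 0.35). Sevir.8G023000 and Sevir.8G023100 rose by 3.76 ± 0.46 and 3.19 ± 0.30. Among all 1276 genes past 2-fold there were 93 pairs with consecutive identifiers, of which 84 moved the same way. A longer run counts as several pairs, and no share over all genes tested was computed beside this count. With 845 falls and 431 rises, many pairs would move the same way whatever their order. Salmon divides reads between like transcripts, and whether these neighbours share sequence was not tested.

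The 20 largest falls, with at least 1 CPM at 10 DAS, ran from -7.33 to -3.38, from a median of 2.78 CPM at 10 DAS. Of these, 16 had a lower mean at 14 DAS than at 12 DAS, where their means were only 0 to 1.46 CPM, and the difference was not tested. In Sevir.1G061500 the means were 0.488 CPM (SD 0.13) at 12 DAS and 0.437 CPM (SD 0.29) at 14 DAS. Such counts were not made over all called genes, for falls or for rises. Of the 20 largest falls, 3 have an annotation in the tables used here, the C2H2 gene Sevir.3G408300, the ATAF2-like NAC gene Sevir.9G038400 and the WRKY40-like Sevir.1G061500. The last, whose Arabidopsis counterpart acts in defence, was at 3.68, 6.63, 4.36 and 6.52 CPM at 10 DAS and at 0.338, 0.544 and 0.583 CPM at 12 DAS (-3.42 ± 0.54, adjusted p = 0.000137). Sevir.2G363500 was at 0.839 to 1.86 CPM at 10 DAS and had 0 counts at 12 DAS, which makes it at least 6.93-fold lower with 3 counts set for each 12 DAS library. Sevir.7G103000, with 224 counts at 10 DAS and 3 at 12 DAS, was 48.9-fold lower (95% interval 16.5 to 239, exact, counting error only). Sevir.6G172300 was 1 of the 4 with a higher mean at 14 than at 12 DAS. Its 10 DAS libraries were at 1.96 to 4.61 CPM, those of 12 DAS at 0.0563 to 0.233 CPM, and its mean at 14 DAS was 13.8 CPM.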

How the data were processed

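The authors deposited 1 table of expected counts (estimated counts) for 35214 genes in 23 libraries of 6 stages, made with Salmon 0.8.1 and tximport 1.0.3 on primary transcripts of the S. viridis 1.1 annotation, without normalization. Counts were rounded (8.77% had a fraction). edgeR 4.0.16 (R 4.3.3) was run with TMM, filterByExpr and a mean per stage over all libraries, so that the 16 others share the estimate of spread. Standard errors (SE) were recovered from each fold change and its F statistic. The replicates are separate pools. Gene lists came from the study's supplementary tables. Members, lists and tests were chosen with earlier results of these data known. The text names the study's genes, the 20 largest rises and falls without overlap, the 2 largest per family and direction, the 10 called genes highest at 10 DAS, the study's 21 candidates, and genes added after values were seen. Alternatives were DESeq2 1.42.0, other scalings and filters, fewer libraries, a replicate block and leaving out each library. On simulated data with 200 genes changed 2-fold among 20714, 70.5% were recovered and 2.08% of calls were false. The RefSeq table matched 0 identifiers, so no sequences are given. Results for some genes are not reported here.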

Additional observations from a re-analysis of the deposited data

Results flagged for a closer look

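At 10 DAS, the stage with 4 libraries, 131 genes named here or added were checked for a library that stands apart from the other 3 (by Dixon's criterion for 4 values, the gap to the nearest over the range). There were 7, and chance flags about 1 in 20. In 5 of them it was replicate 1. Replicate 1 was the highest for the SPL5-like Sevir.2G336300 (1.68 CPM, the others 0.567 to 0.727 CPM), for Sevir.8G210500 (2.64 CPM, the others 0.667 to 0.992 CPM), for Sevir.6G030900 (6.27 CPM, the others 1.96 to 2.41 CPM) and for the bZIP42-like Sevir.1G310600 (4.99 CPM, the others 2.06 to 2.54 CPM). It was the lowest for Sevir.9G408000 (672 CPM, the others 935 to 977 CPM). Replicate 3 was the highest for the OsMADS47 homolog (290 CPM, the others 227 to 236 CPM), and replicate 4 for the zinc finger gene Sevir.8G084100 (3.61 CPM, the others 2.66 to 2.80 CPM). Without replicate 1 the fall of Sevir.1G310600 was not called (adjusted p = 0.0742), and it also lost its call without 12 DAS replicate 1 (0.116). The fall of Sevir.9G408000 was called without replicate 1 (adjusted p = 0.0022) but not in 5 of the other 6 such fits, all but that without 10 DAS replicate 4 (adjusted p up to 0.0968).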

How the results depend on the processing

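Of 3040 called genes, 2938 stayed called with library sizes alone, 3002 with RLE factors, 2953 with DESeq2 (3282 called), 2226 in a fit on only the 7 libraries (2559 called) and 2643 in one on only the 11 paired-end libraries (3158 called). Among the 164 named or added genes tested, no direction of a called gene reversed under any alternative run. The chromosome 1 examples given under other observations were not checked in this way. With at least 10 counts in every library, a filter that leaves 17080 genes, the genes past 2-fold were 549 in place of 1276 and the called members of transcription factor families 102 in place of 156. On leaving out each library the called genes ran from 1739 (without 12 DAS replicate 1) to 4037 (without 10 DAS replicate 4), those past 2-fold from 947 to 1466, the family members from 97 to 155, the genes the study names from 26 to 33 and the auxin-related genes from 9 to 13. Of 164 named or added genes tested 129 were called, of which 93 were called on leaving out any library and 36 were not. Of the 129, 28 lost their call without 12 DAS replicate 1, 20 without 12 DAS replicate 4 and 12 without 12 DAS replicate 2, against 3 to 10 without a 10 DAS library. The other alternatives each took the call from 0 to 12 of them, but 77 of the 164 genes were not tested with at least 10 counts in every library, 15 with only the 7 libraries and 9 with only the 11 paired-end libraries.

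Replicate numbers showed no clear pairing of the libraries, though so few libraries cannot settle this. The deviations of equally numbered libraries correlated at 0.21, -0.05 and 0.04 (Pearson, across genes, for numbers 1, 2 and 4). Those of unequally numbered libraries correlated at -0.27 to 0.21. With the number as a block 2763 genes were called, of which 2654 were among the 3040. The block took the call from 6 of the 164 genes and gave it to SvTaw1 (Sevir.9G221800, adjusted p = 0.0475).

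With 4 and 3 libraries, small changes can be missed. In simulated data, the fit on all libraries found 70.5% of 2-fold changes (2.08% of calls false), that with the block 69% (5.48%) and that on only the 7 libraries 62% (5.34%). The simulation changed 200 genes, kept all others equal over the stages and drew each library independently. In the data 14.4% of genes tested were called and single libraries stood apart over many genes, so these figures may not hold there.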

Other observations

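The annotations used for genes outside the families and named genes were incomplete. The examples here come from the first genes of chromosome 1, listed without regard to expression. Of 1056 listed, 664 were tested, and 33 rose (4.97%) and 54 fell (8.13%), against 6.61% and 7.75% of all genes. Examples were chosen after their values were seen. Among the falls, a peroxidase 52-like gene (Sevir.1G023300) was at 6.38 to 12.3 CPM at 10 DAS and at 2.14 to 3.42 CPM at 12 DAS (log2 fold change -1.62 ± 0.31, SE), and a peroxidase 39-like gene (Sevir.1G077600) at 1.84 to 5.22 CPM and then at 1.38 to 1.80 CPM (-1.40 ± 0.30). The heat shock factor gene HSFC1 (Sevir.1G026200) was at 9.89 to 21.5 CPM and then at 4.98 to 6.98 CPM (-1.32 ± 0.24). None of these overlapped between stages.

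Among the rises was the receptor kinase gene SRF8 (Sevir.1G050000), of the STRUBBELIG family, at 1.39 to 3.16 CPM and then at 7.46 to 10.1 CPM (1.93 ± 0.23). A CINV2-like neutral invertase gene (Sevir.1G101900), for an enzyme that splits sucrose, was at 1.49 to 2.51 CPM and then at 7.10 to 8.49 CPM (1.88 ± 0.19). A cytochrome P450 gene annotated as CYP734A2-like (Sevir.1G042400), whose Arabidopsis relative BAS1 inactivates brassinosteroids, was at 5.88 to 10.3 CPM and then at 18.5 to 28.3 CPM (1.46 ± 0.22). Neighbouring ubiquitin genes also rose, Sevir.1G077400 by 0.66 ± 0.20 and Sevir.1G077500 by 0.70 ± 0.19, and reads shared between such copies may be divided between them.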
